A study of Rattus norvegicus with 35 samples.

Results

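The endoplasmic reticulum (ER) stress and heat shock genes described here are 32 genes that cells use to sense and refold damaged or unfolded protein, measured in rat liver after short exposure to the flame retardant TBB (2-ethylhexyl-2,3,4,5-tetrabromobenzoate). A gene was taken where the array carried a probe set annotated with its symbol alone, and the probe set with the highest mean over 35 arrays stood for it. By this rule 29 of the 32 genes were measured, out of 14217 genes with such a probe set on the array. Hspa1b, Hspa8 and Hsp90aa1, encoding inducible Hsp70, constitutive Hsc70 and inducible Hsp90, had only probe sets shared with another symbol and were left out. The 29 genes fell into 7 of the amino acid and integrated stress response, 14 of the ER chaperones and the unfolded protein response, and 8 heat shock genes, 6 of them cytosolic and 2 mitochondrial.

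The animals were male Harlan Sprague Dawley rats that entered the study at 7 weeks of age. They received TBB in corn oil by gavage on 5 consecutive days, and the left liver lobe was taken 1 day after the last dose. The groups were corn oil alone (vehicle, 5 rats) and TBB at 550, 55, 5.50, 0.55 and 0.05 mg/kg (6 rats each). All groups shared the NTP-2000 diet, the corn oil and the gavage volume of 5 ml/kg, with 1 single-colour Affymetrix 3' array per liver. Whole lobes were profiled, so fewer cells of a type and less RNA per cell cannot be told apart.

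The 35 arrays correlated with each other at r of 0.988 to 0.996, and no pair held identical values. Hepatocyte genes marked the tissue as labelled: the mean log2 level of 7 measured hepatocyte markers lay between 13.75 and 13.91 on every array. Exposure was visible in Cyp1a1, a detoxification enzyme induced through the aryl hydrocarbon receptor, whose mean log2 level was 4.53 ± 0.20 (SD, n = 5) in vehicle, 8.78 ± 0.69 (SD, n = 6) at 55 mg/kg and 11.86 ± 0.37 (SD, n = 6) at 550 mg/kg. Differences between the 3' and 5' probe sets of beta-actin, GAPDH and hexokinase, a measure of RNA integrity, gave 15 intervals (95%) against vehicle over the 5 doses, all of which spanned 0.

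Cells answer misfolded protein in compartments. In the integrated stress response, kinases that sense ER stress, amino acid shortage or heme shortage phosphorylate the translation factor eIF2alpha, which slows protein synthesis while favouring translation of the transcription factor ATF4. In the unfolded protein response, ER sensors raise chaperones and degradation factors through XBP1 and ATF6, and hepatocytes, which secrete most plasma proteins, carry a large ER. In the cytosol, heat shock factor 1 induces Hsp70, Hsp90, Hsp110 and their cochaperones.

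No dose of TBB moved any of the 29 genes past the threshold against vehicle (limma, Benjamini-Hochberg adjusted p under 0.05 over 31042 probe sets). The share of all probe sets called was 0% at 0.05, 0.55 and 5.50 mg/kg, 0.00644% at 55 mg/kg and 0.499% at 550 mg/kg (0.354% higher and 0.145% lower). At an unadjusted p under 0.05, 5, 2, 2, 0 and 5 of the 29 passed at the 5 rising doses, beside 1879, 1198, 1536, 1304 and 2692 of all 31042 probe sets. None was called on a slope over dose rank either, where 0.171% of all probe sets were (0.0966% higher and 0.0741% lower). Tests that do not rest on vehicle alone named 3 genes. A test for any difference among the 6 groups called Pdia6 (F = 8.25, adjusted p = 0.0105) and Hsph1 (F = 6.19, adjusted p = 0.0489), against 0.741% of all probe sets. Comparing 550 mg/kg with the mean of the other 5 groups, a contrast chosen after the values were seen, called Pdia6 and Pdia3 higher and Hsph1 lower, against 2.71% of all probe sets (1.68% higher and 1.03% lower). The plot of differences from vehicle shows the 29 genes together.

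**Figure D1:**
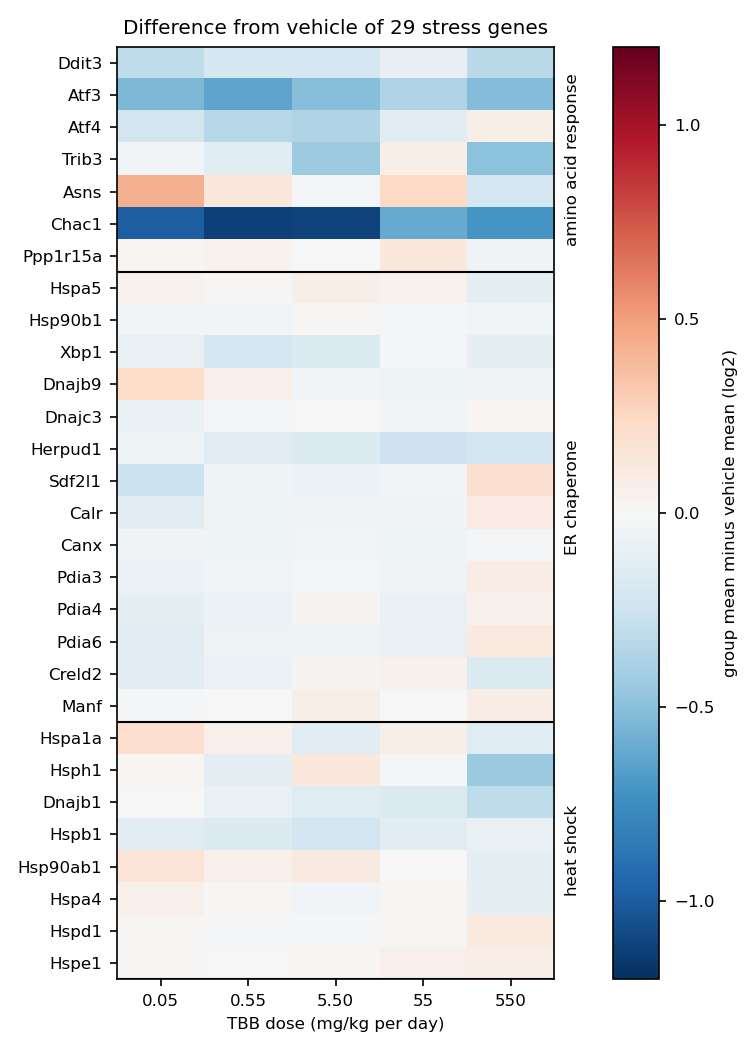
Difference of each dose group's mean from the vehicle mean (log2, colour) for 29 genes in rows, grouped into amino acid response, ER chaperone and heat shock genes, at 5 TBB doses in columns. Chac1 has the lowest values, from -1.12 to -0.60, ER chaperone genes are pale, and Hsph1 is at -0.44 at 550 mg/kg. Of all these differences none passed the adjusted threshold.

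Set side by side, the 3 sections lay differently around vehicle, a difference that was not itself tested. At 550 mg/kg all 6 cytosolic heat shock genes had a negative difference, with a median of -0.13 and a range of -0.44 to -0.087 on the log2 scale. The ER chaperone genes split evenly, 7 positive and 7 negative, with a median of 0.0019. Of the 7 amino acid response genes 6 were negative, with a median of -0.32. Over all probe sets 15207 of 31042 were negative at that dose, with a median of 0.0024. With 1 probe set per gene, the rule used for the sections, 7600 of 14217 were negative, with a median of -0.0083. At 55 mg/kg the cytosolic heat shock genes were 3 positive and 3 negative with a median of -0.0049, and at 0.05 mg/kg 5 of the 6 were positive, so all 6 lay on 1 side of vehicle at 550 mg/kg and at none of the other 4 doses. Amino acid response medians were negative at every dose, at -0.22, -0.21, -0.36, -0.10 and -0.32, and all 5 comparisons share the same 5 vehicle arrays. Against the mean of the other 5 groups, the 550 mg/kg medians were -0.11 for amino acid response, 0.035 for ER chaperone and -0.18 for cytosolic heat shock genes. These counts and medians are descriptions, and no section was tested as a list.

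The amino acid response genes varied from rat to rat far more than the others. Their median SD within dose groups was 0.55 on the log2 scale, with a range of 0.10 for Ppp1r15a to 0.77 for Trib3, beside 0.10 for ER chaperone genes, 0.19 for heat shock genes and 0.14 for all probe sets. A difference of a given size was therefore harder to detect in this section than in the others.

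The C/EBP-ATF response element core TGATGNAA, searched on both strands of the 250 bases before each gene's start in RefSeq (GRCr8), was found for 2 of the amino acid response genes, Chac1 and Trib3, and for Herpud1 of the ER section. It occurs in 3.4% of 33469 promoters. The search covered 25 of the 29 measured genes. With group means subtracted, Chac1 had r of 0.509 with Trib3 and 0.18 with Herpud1. Its closest partners in the section, Atf3 and Atf4, are not among the genes with a match. A part of the core in this was not tested. The sites of the 3 genes are shown. Capitals mark the core, here on the opposite strand to the gene, and each sequence reads 5' to 3' along the gene's strand.
Chac1, chr3:126795954-126795981, plus strand: ttctccgccgTTGCATCActcctgctag
Trib3, chr3:161275537-161275564, minus strand: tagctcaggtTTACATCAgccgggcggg
Herpud1, chr19:10614874-10614901, minus strand: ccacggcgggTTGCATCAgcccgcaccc

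Chac1 encodes a glutathione-degrading enzyme and is a classic ATF4 target. Its log2 levels in the 5 vehicle livers were 8.56, 7.54, 8.16, 6.56 and 5.58. The lowest, median and highest levels of the dose groups were 5.59, 6.15 and 7.66 at 0.05 mg/kg, 5.69, 6.09 and 6.83 at 0.55 mg/kg, 5.71, 6.09 and 6.99 at 5.50 mg/kg, 5.83, 6.39 and 8.33 at 55 mg/kg and 6.02, 6.44 and 7.12 at 550 mg/kg. Vehicle replicates 1 to 3 lay above all treated livers except replicate 6 at 0.05 mg/kg and replicate 1 at 55 mg/kg. Vehicle replicate 4, at 6.56, lay within the range of the treated livers. Vehicle replicate 5, at 5.58, was the lowest liver of the study, just below the lowest at 0.05 mg/kg. The differences from vehicle were -0.99, -1.12, -1.11, -0.60 and -0.71 at the 5 rising doses, with adjusted p of 0.801, 1.00, 0.998, 0.999 and 0.662 by limma. At 0.55 mg/kg the 95% interval of the difference ran from -1.94 to -0.29.

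Atf3, a transcriptional repressor induced by many stresses, showed the same split of the vehicle group, with log2 levels of 6.86, 6.79, 6.68, 4.96 and 4.86. Its dose groups had lowest, median and highest levels of 5.00, 5.31 and 6.43 at 0.05 mg/kg, 5.05, 5.35 and 5.93 at 0.55 mg/kg, 5.06, 5.35 and 6.30 at 5.50 mg/kg, 5.20, 5.66 and 6.23 at 55 mg/kg and 4.93, 5.54 and 6.03 at 550 mg/kg. Vehicle replicates 1 to 3 lay above every treated liver and replicates 4 and 5 among the lowest of the study. The lower Atf3 levels lie near the array medians of 5.09 to 5.16. RMA values can level off at dim levels, and whether this limits its differences was not tested. The differences of Atf3 from vehicle were -0.54, -0.63, -0.51, -0.37 and -0.52, with no adjusted p under 0.687. Atf4, the master regulator of the section, stood at 11.05, 10.90, 10.92, 10.47 and 10.25 in vehicle, again with 3 higher and 2 lower livers. Its dose groups gave 10.20, 10.37 and 11.01 at 0.05 mg/kg, 10.20, 10.32 and 10.81 at 0.55 mg/kg, 9.79, 10.40 and 10.87 at 5.50 mg/kg, 10.33, 10.49 and 11.02 at 55 mg/kg and 10.35, 10.91 and 10.98 at 550 mg/kg. At 550 mg/kg 5 of 6 livers lay at 10.66 or above, and the difference was 0.072 ± 0.17 (SE), the only positive one of the section at that dose.

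Trib3, a pseudokinase that feeds back on ATF4 and CHOP, had vehicle levels of 8.58, 8.62, 8.76, 7.86 and 7.77. Its dose groups spread widely, with lowest, median and highest levels of 7.16, 8.33 and 9.49 at 0.05 mg/kg, 7.00, 8.36 and 9.18 at 0.55 mg/kg, 6.73, 7.85 and 9.13 at 5.50 mg/kg, 7.57, 8.22 and 9.41 at 55 mg/kg and 6.72, 7.91 and 8.48 at 550 mg/kg. The highest liver was 1 of the 0.05 mg/kg group and the lowest 1 of the 550 mg/kg group, and all groups overlapped. Both of its other probe sets also gave a negative difference at 550 mg/kg, neither called.

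Ddit3, which encodes the proapoptotic factor CHOP, read 7.02, 6.93, 6.82, 6.29 and 7.04 in vehicle. Its dose groups had lowest, median and highest levels of 6.06, 6.47 and 7.06 at 0.05 mg/kg, 6.41, 6.56 and 6.91 at 0.55 mg/kg, 6.22, 6.59 and 6.88 at 5.50 mg/kg, 6.38, 6.69 and 7.09 at 55 mg/kg and 6.24, 6.44 and 6.81 at 550 mg/kg. All differences from vehicle were negative, at -0.30, -0.21, -0.21, -0.10 and -0.32, and vehicle replicate 4 lay among the lowest livers of the study. The smallest adjusted p was 0.525, at 550 mg/kg.

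Asns, asparagine synthetase, did not follow that split. Its vehicle levels were 8.30, 7.38, 8.27, 7.68 and 9.01, highest in replicate 5, where Atf3 and Chac1 were lowest. Its dose groups gave 8.22, 8.56 and 8.86 at 0.05 mg/kg, 7.24, 8.35 and 8.79 at 0.55 mg/kg, 7.23, 8.06 and 8.82 at 5.50 mg/kg, 8.01, 8.26 and 8.94 at 55 mg/kg and 6.60, 8.11 and 8.93 at 550 mg/kg. At 550 mg/kg the livers fell into 4 at 7.97 or above and 2 at 6.82 or below, and the group SD of 1.00 was the widest of the 6. Ppp1r15a, the GADD34 subunit that reverses eIF2alpha phosphorylation, read 5.84, 5.77, 5.74, 5.59 and 5.67 in vehicle and 5.54, 5.78 and 5.86 at 0.05 mg/kg, 5.68, 5.74 and 5.93 at 0.55 mg/kg, 5.58, 5.73 and 5.89 at 5.50 mg/kg, 5.70, 5.82 and 6.06 at 55 mg/kg and 5.61, 5.67 and 5.73 at 550 mg/kg in the dose groups. Its differences from vehicle, 0.023, 0.040, 0.0037, 0.13 and -0.045 at the 5 rising doses, were not called (adjusted p of 0.912 or above). Its levels lie near the array medians of 5.09 to 5.16, and RMA values can level off at dim levels.

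**Figure D2:**
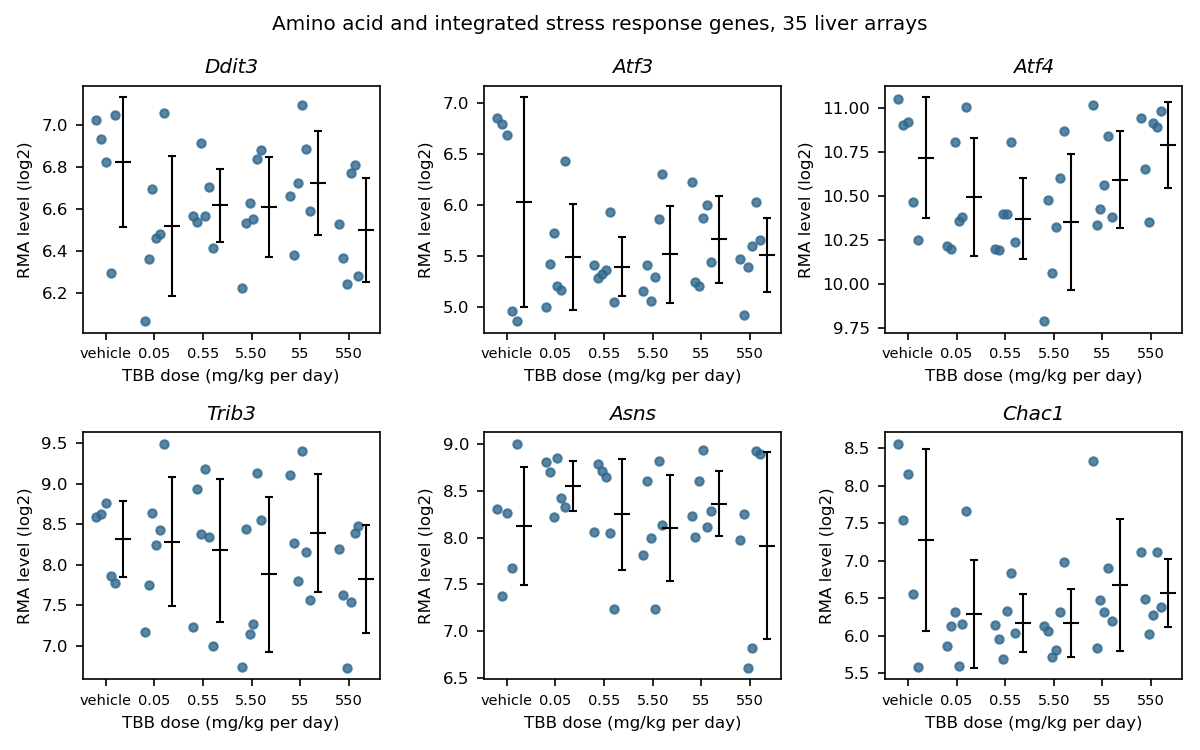
Log2 RMA level (y axis) of Ddit3, Atf3, Atf4, Trib3, Asns and Chac1 in each of 35 livers (points, replicate 1 leftmost) by TBB dose in mg/kg per day (x axis), with the group mean and SD beside each group. In Atf3 and Chac1 3 vehicle livers sit high and 2 low, and the vehicle SD of Chac1 is 1.21.

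Fgf21, a secreted hormone that ATF4 also induces and that is named here after its values were seen, read 10.18, 9.12, 9.33, 8.06 and 7.59 in vehicle, again with replicates 1 to 3 above replicates 4 and 5. It was picked from a list of 21 further integrated stress response targets, whose mean did not show the same split. That mean was 8.49, 8.13, 8.42, 8.06 and 8.36 in vehicle replicates 1 to 5, with replicate 5 above replicate 2. The contrast of vehicle with the mean of the 5 dose groups, also chosen after the values were seen, called none of the 29 genes, beside 0.00966% of all probe sets (0.00322% higher and 0.00644% lower). The difference of vehicle from the dose groups was 0.91 ± 0.33 for Chac1 (SE, adjusted p = 0.991) and 0.51 ± 0.25 for Atf3 (adjusted p = 0.991, limma). The mean level of 6 immediate early genes, a list that responds to handling, was 8.45, 7.52, 7.54, 7.23 and 7.61 in vehicle replicates 1 to 5, highest in replicate 1 and no higher in replicates 2 and 3 than in replicate 5. Its part in the vehicle split was not tested.

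The ER stress element, CCAAT and CCACG with 9 bases between them, is the binding site of ATF6 with the factor NF-Y. Searched in the same windows and on both strands, it was found in 0.0657% of promoters and in those of 7 ER chaperone genes, Hspa5, Hsp90b1, Creld2, Calr, Canx, Dnajc3 and Xbp1. Dnajb9, Herpud1, Sdf2l1 and Pdia4 were searched and lacked this form. Promoters of Pdia3, Pdia6 and Manf were not available to search. A second form, ATTGG and CCACG with 1 base between them, occurs in 0.0418% of promoters and was found before Herpud1. Xbp1, Canx and Dnajc3, which hold the first form, had r with Hspa5 of -0.055, 0.341 and 0.414 (group means subtracted), none past the threshold. Hsp90b1, Creld2 and Calr passed it. Pdia4, which lacks that form, had r of 0.744 with Hspa5. A part of the element in this was not tested. The sites of 4 genes that varied together from liver to liver are shown, with the motif in capitals. Hsp90b1 holds a second site.
Hspa5, chr3:38452963-38453001, plus strand: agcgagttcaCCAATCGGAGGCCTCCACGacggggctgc
Hsp90b1, chr7:23012441-23012479, minus strand: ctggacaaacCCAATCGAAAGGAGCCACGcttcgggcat
Creld2, chr7:121789229-121789267, plus strand, motif on the opposite strand: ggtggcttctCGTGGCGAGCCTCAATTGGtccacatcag
Calr, chr19:40213125-40213163, plus strand, motif on the opposite strand: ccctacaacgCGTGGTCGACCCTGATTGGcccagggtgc

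The ER chaperone genes were the steadiest section, and 1 of them, Pdia6, differed among the 6 groups. Pdia6 encodes a protein disulfide isomerase that also damps the ER sensors. Its log2 levels were 11.75, 11.89, 11.81, 11.81 and 11.76 in vehicle. The dose groups had lowest, median and highest levels of 11.61, 11.66 and 11.73 at 0.05 mg/kg, 11.69, 11.72 and 11.82 at 0.55 mg/kg, 11.67, 11.74 and 11.80 at 5.50 mg/kg, 11.62, 11.73 and 11.77 at 55 mg/kg and 11.78, 11.92 and 12.07 at 550 mg/kg. Levels were lowest at 0.05 mg/kg and highest at 550 mg/kg, and these 2 groups did not overlap. Every 0.05 mg/kg liver also lay below every vehicle liver, whereas 550 mg/kg and vehicle overlapped. Against vehicle the differences were -0.14, -0.063, -0.059, -0.090 and 0.12, with adjusted p of 0.801 at 0.05 mg/kg and 0.385 at 550 mg/kg. Against the mean of the other 5 groups, 550 mg/kg was 0.19 ± 0.034 higher (SE, 1.14-fold, adjusted p = 7.6e-04). The F test lost its call without 550 mg/kg replicate 2 (adjusted p = 0.0542) or replicate 4 (adjusted p = 0.0615) and kept it without any other single array, while the later contrast was called without each of the 35 arrays in turn.

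Pdia3, the disulfide isomerase that works with calnexin and calreticulin on glycoproteins, was also highest at 550 mg/kg. It read 12.31, 12.28, 12.28, 12.36 and 12.21 in vehicle and had lowest, median and highest levels of 12.14, 12.19 and 12.33 at 0.05 mg/kg, 12.16, 12.25 and 12.34 at 0.55 mg/kg, 12.18, 12.26 and 12.35 at 5.50 mg/kg, 12.16, 12.25 and 12.32 at 55 mg/kg and 12.32, 12.38 and 12.46 at 550 mg/kg in the dose groups. At 550 mg/kg it was 0.13 ± 0.035 above the mean of the other groups (adjusted p = 0.0346, limma), a call that was lost without any 1 of 550 mg/kg replicates 2 to 6 (adjusted p of 0.0562 to 0.140) and with array medians subtracted (0.0957). A second, dimmer probe set of the same gene gave 0.34 ± 0.068 (adjusted p = 0.00252) in that contrast and 0.28 ± 0.091 against vehicle (adjusted p = 0.223). Its F test was called, with an adjusted p of 0.0277, and lost the call without 0.05 mg/kg replicate 1 or 4 or 550 mg/kg replicate 2, 3, 4 or 5 (adjusted p of 0.0626 to 0.122).

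Sdf2l1, a cofactor of the Hsp70 of the ER, stood at 9.89, 9.95, 9.55, 9.65 and 9.49 in vehicle. Its dose groups gave 9.27, 9.46 and 9.62 at 0.05 mg/kg, 9.35, 9.58 and 10.09 at 0.55 mg/kg, 9.50, 9.64 and 9.78 at 5.50 mg/kg, 9.39, 9.70 and 9.86 at 55 mg/kg and 9.47, 9.96 and 10.16 at 550 mg/kg. The 550 mg/kg median was the highest of the 6 and the 0.05 mg/kg median the lowest, and the 550 mg/kg group overlapped every other group. Its difference at 550 mg/kg was 0.19 ± 0.11 against vehicle (adjusted p = 0.669) and 0.27 ± 0.081 against the other groups (adjusted p = 0.0665). Calr, the calcium-binding lectin chaperone calreticulin, read 10.83, 10.78, 10.85, 10.84 and 10.77 in vehicle and 10.57, 10.71 and 10.75 at 0.05 mg/kg, 10.63, 10.79 and 10.86 at 0.55 mg/kg, 10.68, 10.76 and 10.89 at 5.50 mg/kg, 10.64, 10.78 and 10.92 at 55 mg/kg and 10.78, 10.90 and 11.10 at 550 mg/kg in the dose groups. Every 0.05 mg/kg liver lay below every vehicle liver, by as little as 0.02, and at 550 mg/kg the difference against the other groups was 0.15 ± 0.044 (adjusted p = 0.0575).

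Hspa5 encodes BiP, the Hsp70 of the ER and the textbook marker of ER stress. Its vehicle levels were 12.48, 12.24, 12.48, 12.58 and 12.38. The dose groups had lowest, median and highest levels of 12.38, 12.45 and 12.62 at 0.05 mg/kg, 12.37, 12.41 and 12.63 at 0.55 mg/kg, 12.43, 12.52 and 12.55 at 5.50 mg/kg, 12.37, 12.45 and 12.61 at 55 mg/kg and 12.20, 12.33 and 12.45 at 550 mg/kg. The 550 mg/kg median was the lowest of the 6, and all groups overlapped. The difference at 550 mg/kg was -0.10 ± 0.061 against vehicle, with a 95% interval of -0.23 to 0.019 and an adjusted p of 0.672. The mean of Hspa5 was 12.33 at 550 mg/kg and ran from 12.43 in vehicle to 12.50 at 5.50 mg/kg in the other 5 groups. In the contrast of 550 mg/kg with those 5 groups Hspa5 was not called. In that contrast the 14 ER genes ran from -0.15 to 0.27, with 8 positive and 6 negative. Herpud1, which helps to assemble the ER degradation machinery, read 11.03, 10.86, 11.10, 10.98 and 11.08 in vehicle and 10.60, 10.92 and 11.26 at 0.05 mg/kg, 10.57, 10.85 and 11.33 at 0.55 mg/kg, 10.63, 10.78 and 11.18 at 5.50 mg/kg, 10.41, 10.86 and 11.00 at 55 mg/kg and 10.27, 10.91 and 10.99 at 550 mg/kg in the dose groups. Its differences from vehicle were all negative, at -0.060, -0.14, -0.16, -0.25 and -0.22, none of them called.

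The other 8 ER genes stayed within 0.22 of vehicle on the log2 scale at every dose. Among the chaperones and isomerases Hsp90b1, Canx, Pdia4, Dnajc3 and Manf, differences from vehicle over the 5 doses ran from -0.11 to 0.089. Xbp1, the transcription factor activated by IRE1, ran from -0.21 to -0.014; the array does not separate its spliced form. Dnajb9, an Hsp40 of the ER, ran from -0.057 to 0.22, and Creld2, a secreted ER stress protein, from -0.18 to 0.049. None of these 8 genes was called in any of the comparisons.

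Heat shock factor 1 binds repeats of the pentamer NGAAN in alternating orientation. The motif of GAA, TTC and GAA with 2 bases between neighbours, searched on both strands of the same 250-base windows, occurs in 0.663% of promoters and was found before Hsph1, Hspd1 and Hspe1 among the measured genes. Hspd1 and Hspe1 start in opposite directions, and their promoter entries overlap by 211 bases, so they hold the same element. It is shown for Hsph1, the heat shock gene called in 2 tests, and for Hspe1, with 1 match in capitals; a second match overlaps it there.
Hsph1, chr12:10427322-10427354, plus strand, motif on the opposite strand: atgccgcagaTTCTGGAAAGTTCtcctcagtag
Hspe1, chr9:64084257-64084289, plus strand: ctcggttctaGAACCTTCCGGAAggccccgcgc

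On the probe sets that stand for the genes, heat shock genes include the one with the smallest adjusted p against vehicle, Hsph1. A second probe set of Hsp90ab1, given below, had a smaller one. Hsph1 encodes Hsp110, a nucleotide exchange factor that lets Hsp70 release its clients. Its log2 levels in vehicle were 8.73, 8.43, 8.66, 8.99 and 8.85. The dose groups had lowest, median and highest levels of 8.45, 8.84 and 8.98 at 0.05 mg/kg, 8.47, 8.53 and 8.93 at 0.55 mg/kg, 8.60, 8.86 and 9.07 at 5.50 mg/kg, 8.47, 8.73 and 8.98 at 55 mg/kg and 8.01, 8.31 and 8.53 at 550 mg/kg. At 550 mg/kg 5 of the 6 livers lay below every other liver of the study, and only replicate 6, at 8.53, overlapped. Against vehicle 550 mg/kg was -0.44 ± 0.12 (SE, adjusted p = 0.0853), and against the mean of the other 5 groups it was lower at -0.45 ± 0.087 (adjusted p = 0.00183, 1.36-fold lower). A second probe set gave -0.35 ± 0.14 against vehicle (adjusted p = 0.386) and -0.40 ± 0.10 against the other groups (adjusted p = 0.0205). With each of the 35 arrays left out in turn, the F test kept its call in only 12 runs. It lost the call in all other runs, at adjusted p of 0.0510 to 0.214. Those runs left out vehicle replicate 1, 3 or 5, 0.05 mg/kg replicate 1, 3, 4 or 5, or 0.55 mg/kg replicate 2, 4, 5 or 6. The rest of them left out 5.50 mg/kg replicate 1, 3, 4, 5 or 6, 55 mg/kg replicate 3 or 4, or 1 of 550 mg/kg replicates 1 to 5. The contrast with the other 5 groups was called without each of the 35 arrays, and the contrast with vehicle passed without vehicle replicate 2 (adjusted p = 0.0395).

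Dnajb1, the Hsp40 that delivers clients to Hsp70, stood at 8.89, 8.85, 9.09, 8.94 and 8.98 in vehicle. Its dose groups gave 8.69, 8.97 and 9.15 at 0.05 mg/kg, 8.60, 8.82 and 9.15 at 0.55 mg/kg, 8.48, 8.84 and 9.20 at 5.50 mg/kg, 8.50, 8.79 and 9.02 at 55 mg/kg and 8.31, 8.64 and 8.89 at 550 mg/kg. The medians from 0.55 mg/kg upward lay below that of vehicle, and at 550 mg/kg 5 of 6 livers lay below every vehicle liver. The difference there was -0.30 ± 0.12 on the probe set used (adjusted p = 0.387) and -0.21 ± 0.087 on a second (adjusted p = 0.422).

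Hsp90ab1, the constitutive cytosolic Hsp90, has 2 probe sets. The one with the higher mean read 11.85, 11.49, 11.87, 11.93 and 11.89 in vehicle, where replicate 2 stood low, and 11.47, 11.63 and 12.00 (lowest, median and highest) at 550 mg/kg, a difference of -0.11 ± 0.10 (adjusted p = 0.846). The other read 11.92, 11.73, 11.96, 11.90 and 11.93 in vehicle and 11.40, 11.66 and 11.82 at 550 mg/kg, with a difference of -0.23 ± 0.058 against vehicle (adjusted p = 0.0555) and -0.20 ± 0.043 against the other groups (adjusted p = 0.00419). On the first, 4 of 6 livers at 550 mg/kg lay at 11.68 or below, as did vehicle replicate 2, while on the second 4 of 6 lay below every vehicle liver. Without vehicle replicate 2 the difference of the second was -0.27 (adjusted p = 0.0251).

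The remaining cytosolic genes were not called. Hspa1a, the stress-inducible Hsp70, read 5.78, 5.35, 5.76, 5.22 and 5.01 in vehicle and 5.08, 5.19 and 5.85 at 550 mg/kg, where 5 of 6 livers lay at 5.24 or below and replicate 6 at 5.85; these levels too lie near the array medians. Hspa4, another Hsp110 relative, differed by -0.12 ± 0.091 and Hspb1, the small heat shock protein Hsp27, by -0.087 ± 0.20 at 550 mg/kg.

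The mitochondrial partners Hspd1 and Hspe1, the Hsp60 and Hsp10 chaperonin, lay on the other side of vehicle at 550 mg/kg. Hspd1 read 12.39, 12.30, 12.46, 12.53 and 12.48 in vehicle and 12.37, 12.46 and 12.49 at 0.05 mg/kg, 12.19, 12.47 and 12.49 at 0.55 mg/kg, 12.34, 12.41 and 12.50 at 5.50 mg/kg, 12.31, 12.45 and 12.56 at 55 mg/kg and 12.40, 12.57 and 12.63 at 550 mg/kg in the dose groups. The 550 mg/kg median was the highest of the 6, with replicate 3 the exception among its livers. The difference was 0.12 ± 0.055 against vehicle (adjusted p = 0.519) and 0.12 ± 0.041 against the other groups (adjusted p = 0.109), and that of Hspe1 against vehicle was 0.076 ± 0.051.

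**Figure D3:**
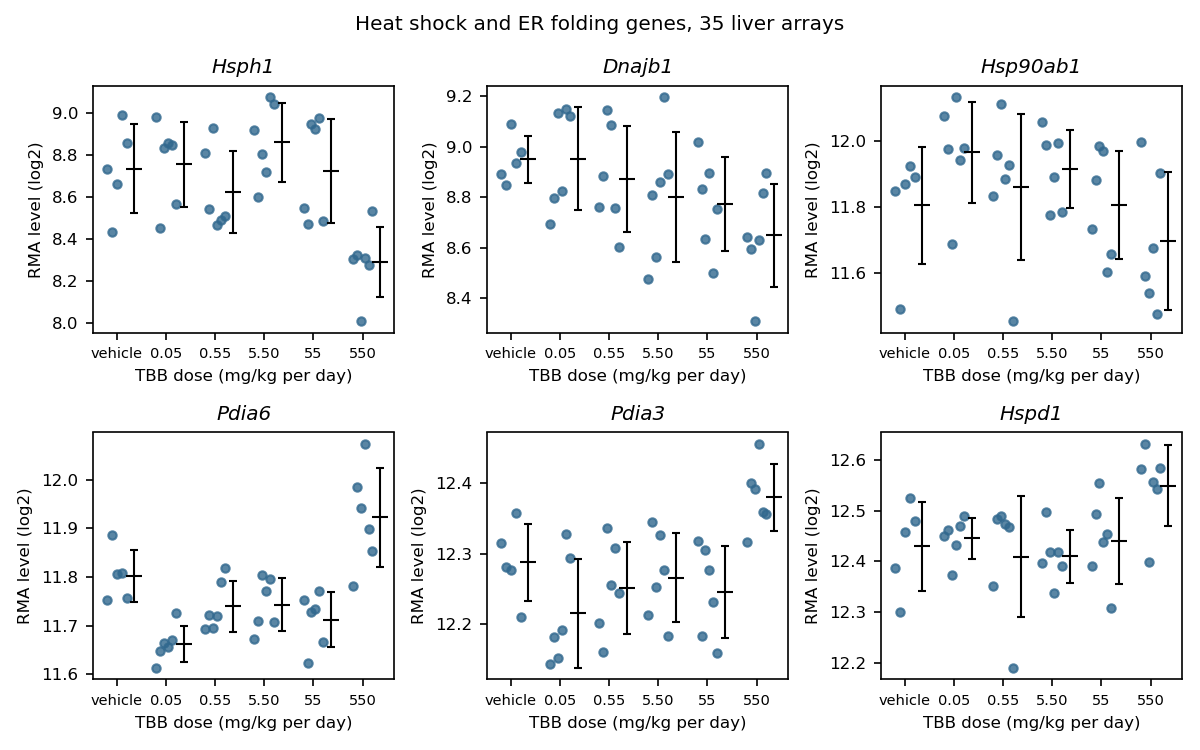
Log2 RMA level (y axis) of Hsph1, Dnajb1, Hsp90ab1, Pdia6, Pdia3 and Hspd1 in each of 35 livers (points, replicate 1 leftmost) by TBB dose in mg/kg per day (x axis), with the group mean and SD beside each group. At 550 mg/kg the 6 Hsph1 livers lie between 8.01 and 8.53, and the 6 Pdia6 livers between 11.78 and 12.07; no y axis starts at 0.

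Markers of other cells were read beside the heat shock genes at 550 mg/kg. Both measured red blood cell genes, of 3 listed, had a negative difference from vehicle that was not called, Hbb at -0.46 ± 0.15 and Alas2 at -0.54 ± 0.18 (SE), and their mean level ran from 8.78 to 9.38 against 9.29 to 9.99 in vehicle. All 7 measured Kupffer cell markers, of 9 listed, had negative differences with a median of -0.22, none called, and their mean level ran from 8.39 to 9.06 against 8.78 to 9.12. Their part in the heat shock values was not tested. Of the 7 hepatocyte markers Apoa1 was lower (-0.51 ± 0.062, adjusted p = 7.3e-06) and the other 6 were not called. Negative differences, none called, were also seen in 5 of 5 endothelial, 5 of 7 stellate, 3 of 3 cholangiocyte, 3 of 5 lymphocyte and 2 of 3 neutrophil markers, and in 2 of 5 genes that follow the clock and body temperature. The mean level of 4 measured plasma cell markers, which include Xbp1 and mark cells rich in ER chaperones, ran from 7.45 to 7.87 at 550 mg/kg and from 7.53 to 7.93 in vehicle.

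Some members of a section varied together from liver to liver within dose groups. After each group's mean was subtracted, Hspa5 correlated with Hsp90b1 at r = 0.791 and Spearman's rho = 0.776 over 35 arrays (permutation within groups, p = 1e-05, the smallest 100000 permutations can give). As background, Hsp90b1 encodes the Hsp90 of the ER. Pearson's r with Hspa5 was 0.744 for Pdia4 (rho 0.709), 0.685 for Creld2 (rho 0.675), 0.568 for Pdia3 (rho 0.575) and 0.495 for Calr (rho 0.509). All 5 passed after adjustment over the 32 pairs computed, with adjusted permutation p of 8e-05 to 0.014 for r and 1e-04 to 0.012 for rho. Without the 2 arrays farthest in Hspa5, r ran from 0.499 for Calr to 0.723 for Hsp90b1. Xbp1 (r = -0.055), Sdf2l1 (r = -0.033) and Pdia6 (r = 0.137) did not pass. Pdia6, the ER gene that differed among the dose groups, correlated with Sdf2l1 at r = 0.685, a pair picked from the matrix after its values were seen and given with no test.

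In the amino acid response section, Chac1, used as an index after the values were seen, correlated with Atf3 at r = 0.836 (rho 0.780) and with Atf4 at r = 0.778 (rho 0.765), both at an adjusted permutation p of 8e-05 for r and 1e-04 for rho. Its r with Trib3 was 0.509 (rho 0.512, adjusted permutation p = 0.0035), and without the 2 arrays farthest in Chac1 the 3 values were 0.817, 0.744 and 0.487. Because Chac1 was picked from these same values, its permutation p-values are descriptions only. Its pairs are among the 32 over which all pairs were adjusted. Asns correlated with Trib3 at r = 0.481 (rho 0.469, adjusted permutation p = 0.014, 0.426 without the 2 farthest arrays). With Chac1 its r was -0.020 and with Atf4 0.072. Hsph1 had no heat shock partner past the threshold; the closest was Hsp90ab1 at r = 0.369 (rho 0.432, adjusted permutation p = 0.11).

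Over all pairs, the median r was 0.378 within the amino acid response section (21 pairs), 0.292 within the ER section (91 pairs) and 0.228 within the heat shock section (28 pairs). Between the amino acid response and ER sections, the amino acid response and heat shock sections, and the ER and heat shock sections it was 0.053, 0.022 and 0.130, and over all pairs of 14217 genes it was 0.000. Some pairs crossed the sections: Dnajb1 with Trib3 reached 0.784 and Xbp1 with Atf4 0.670, while Dnajb9 with Ddit3 was at -0.447. Among ER genes with the first form of the ER stress element the median r over 21 pairs was 0.341. Among the 4 searched that lack that form the median over 6 pairs was 0.155, and these include Herpud1, which holds the second form. These medians share arrays and genes and are descriptions with no test.

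**Figure D4:**
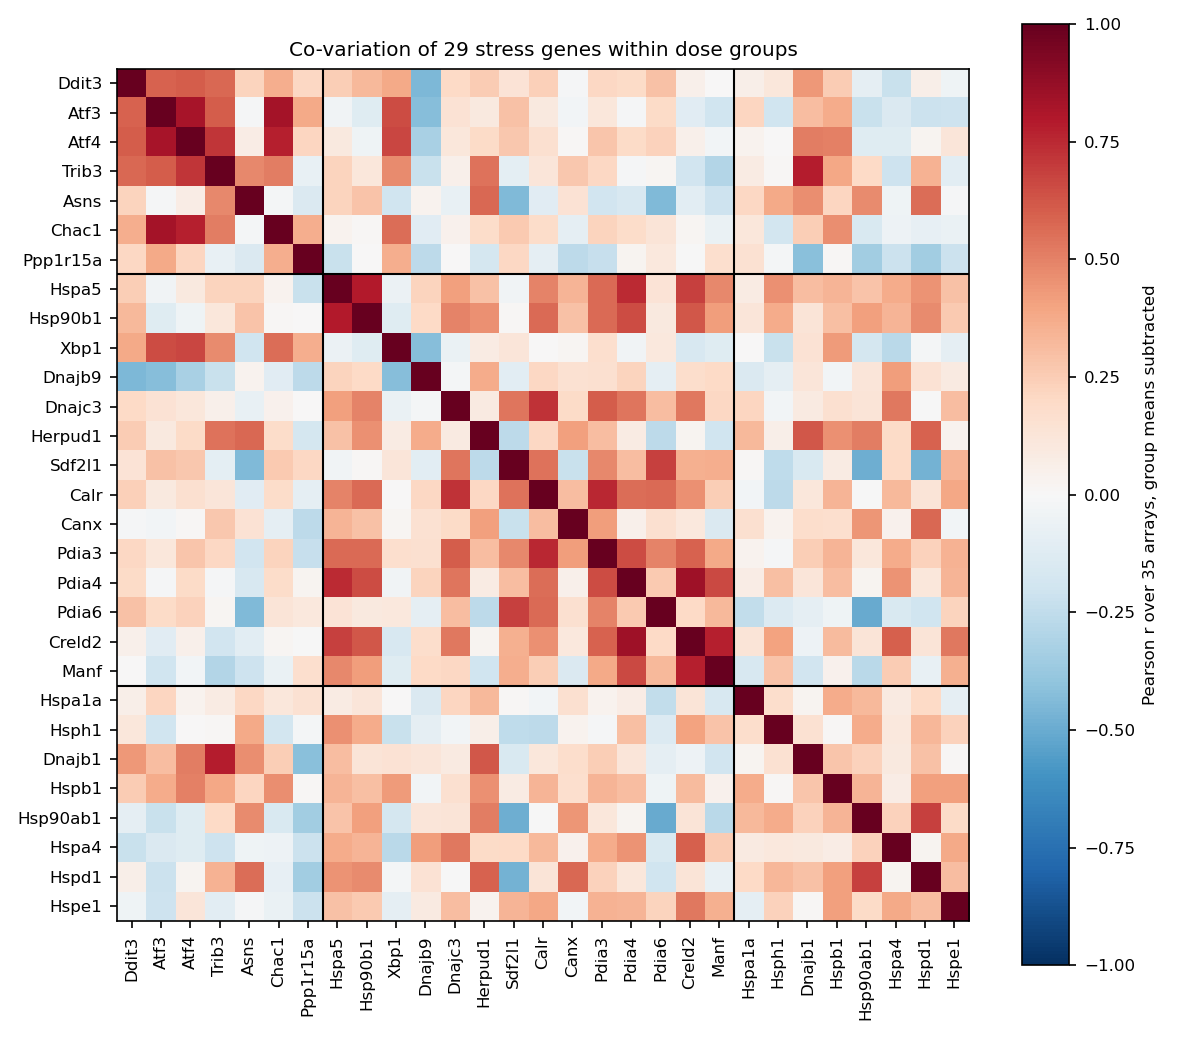
Pearson r (colour) between each pair of 29 genes over 35 arrays after subtraction of group means, with lines between the amino acid response, ER chaperone and heat shock sections. High values include the pairs among Atf3, Atf4 and Chac1 and among Hspa5, Hsp90b1, Pdia4 and Creld2; the median r within the ER section is 0.292.

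Wider lists of the same pathways, of 21, 9, 20, 18 and 6 measured genes, gave 1 called gene at 550 mg/kg against vehicle. In that comparison 0.499% of all probe sets were called (0.354% higher and 0.145% lower). Among 6 mitochondrial folding genes all 6 differences were positive (median 0.072) and Trap1, the mitochondrial Hsp90, rose by 0.23 ± 0.052 (adjusted p = 0.0320). Trap1 read 10.27, 10.24, 10.29, 10.37 and 10.47 in vehicle and 10.48, 10.52 and 10.64 (lowest, median and highest) at 550 mg/kg, with every 550 mg/kg liver above every vehicle liver. The call was lost without 1 of vehicle replicates 1 to 3 or of 550 mg/kg replicates 2, 3 and 6 (adjusted p of 0.0581 to 0.117), with array medians subtracted (0.0723) and in a fit of those 2 groups alone (0.228). Against the other 5 groups, the contrast chosen after the values were seen, Trap1 was called higher without each of the 35 arrays in turn. The difference ran from 0.17 to 0.21 (limma, adjusted p of 0.00127 to 0.0167), where 1.68% of all probe sets were higher.

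Among 18 further heat shock factor 1 and cochaperone genes, 17 had a negative difference at 550 mg/kg, with a median of -0.15, and none was called. Against the other 5 groups 3 were lower, of which Fkbp4 and Stip1 are named after their values were seen: Fkbp4 (-0.23 ± 0.052, adjusted p = 0.00950), Dnaja1 (-0.20 ± 0.042, adjusted p = 0.00479) and Stip1 (-0.21 ± 0.055, adjusted p = 0.0338), all cochaperones of Hsp70 or Hsp90. In that contrast 1.03% of all probe sets were lower. Stip1 lost the call without 1 of 550 mg/kg replicates 1 to 5 (adjusted p of 0.0728 to 0.115) and Fkbp4 without replicate 1 (0.0526). Dnaja1 read 11.13, 11.14, 11.19, 11.10 and 11.22 in vehicle and 10.85, 10.98 and 11.11 at 550 mg/kg, where 5 of 6 livers lay below every vehicle liver.

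Of 21 further integrated stress response targets, 16 had a negative difference at 550 mg/kg (median -0.18), none called. Atf5, an ATF4 target and itself a transcription factor, came closest at -0.53 ± 0.14 (adjusted p = 0.0731). Against the other 5 groups Atf5 (-0.51 ± 0.10, adjusted p = 0.00245) and the amino acid transporter subunit Slc3a2, named after its values were seen, (-0.49 ± 0.12, adjusted p = 0.0119) were lower, beside 1.03% of all probe sets. Slc3a2 lost the call without 550 mg/kg replicate 3 (0.0867) or 4 (0.0835). None of 9 sensors and eIF2alpha kinases or of 20 ER degradation and folding genes was called at any dose; the smallest p values of the F test were those of Mbtps2, the protease that cuts ATF6 (adjusted p = 0.742), and P4hb, a protein disulfide isomerase (adjusted p = 0.735).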

How the data were processed

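Rat livers were profiled on 35 Affymetrix arrays. Each array was taken as 1 rat; the labels give replicate numbers only, and the p-values measure the spread between these samples. Per the submitters' processing notes the authors used RMA and the affy package, versions not given, and deposited log2 expression values per probe set; precision is set by how many arrays a group has. The median SE of a difference at 550 mg/kg was 0.0846 and the median 95% half-width 0.1719.

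Of 31099 probe sets, 57 controls were left out. Of the 31042 tested, 20826 had 1 gene symbol, 436 several and 9780 none listed; all 29 measured genes matched their RefSeq symbol by Entrez identifier. Probe set means per group were fitted over all 35 arrays with limma 3.58.1 in R 4.3.3 (eBayes, two-sided, Benjamini-Hochberg over all probe sets, adjusted p under 0.05). Each dose was compared with vehicle, a slope on dose rank and an F test over the 6 groups were taken, and 2 contrasts were added after the values were seen. The test was checked on simulated data. Correlations used values with the group mean subtracted and 100000 permutations within groups.

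The genes and lists were chosen with earlier results of these data known. Array values are given for the 3 genes of each section with the smallest F test p, the one with the highest mean, a fixed set of well-known stress genes and any gene called; of each wider list, for the genes called at 55 or 550 mg/kg or on the slope, or else the 1 with the smallest F test p. Alternatives covered the dim filter, normalisation between arrays, variance moderation, array weights, a replicate block, the probe set, the arrays in the fit, the dose scale and each array left out. Same-numbered arrays of different groups were not taken as pairs. Promoter sequences come from RefSeq (GRCr8), whose table held 25 of the 29 genes. Hspa1b, Hspa8 and Hsp90aa1 were not analysed here.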

Additional observations from a re-analysis of the deposited data

Results flagged for a closer look

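Of 174 combinations of a gene and a group, 11 held 1 liver far from the rest of its group by Dixon's test at the 95% level, where chance gives about 1 in 20. In the amino acid response section these were Atf4 in 0.55 mg/kg replicate 5, at a log2 level of 10.81, Chac1 in 0.05 mg/kg replicate 6, at 7.66, and Ppp1r15a in 0.55 mg/kg replicate 6, at 5.93, all above their groups. Among ER chaperone genes Hsp90b1 stood low in 0.05 mg/kg replicate 3, at 12.02, and high in 0.55 mg/kg replicate 3, at 12.35. Dnajc3, a cochaperone of BiP, was low in the same 0.05 mg/kg liver, at 10.96, and Dnajb9 was high in 550 mg/kg replicate 2, at 10.37. Among heat shock genes Hspa1a was high in 550 mg/kg replicate 6, at 5.85, which was also the liver of that group with the highest Hsph1. Hsp90ab1 was low in vehicle replicate 2, at 11.49, Hspa4 was low in 55 mg/kg replicate 5, at 8.23, and Hspe1 was high in 55 mg/kg replicate 3, at 12.23.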

How the results depend on the processing

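No called result changed direction under any alternative run. The count of the 29 genes called at 550 mg/kg against vehicle was 1 with array weights (Hsph1, adjusted p = 0.0483), and 0 to 1 with each array left out in turn. On the F test it was 1 with array medians subtracted (Pdia6; Hsph1 at adjusted p = 0.0573), and 0 to 2 with each array left out. On the slope it was 2 on log10(dose) with vehicle left out (Sdf2l1 and Pdia6). For 550 mg/kg against the other 5 groups it was 2 with array medians subtracted (Pdia3 at adjusted p = 0.0957), 4 with trend and robust settings (Calr added, 0.0327), 5 without the 40% dimmest probe sets, 6 with array weights, 6 with a gene's probe sets averaged, and 2 to 5 with each array left out. Sdf2l1 and Calr were added in each of the settings with 5 or 6 calls. At 0.05, 0.55, 5.50 and 55 mg/kg against vehicle it was 0 under every alternative run. Same-numbered arrays did not deviate together: over 85 pairs r ran from -0.306 to 0.269, and 4 of 35 arrays correlated best with their own number. With replicate number as a block the counts were 0 at 550 mg/kg, 2 on the F test and 3 against the other 5 groups, with the same genes called as without the block. The count of all probe sets called at 550 mg/kg was 41 with those 2 groups alone, 82 without vehicle replicate 1, 77 without vehicle replicate 3 and 88 without 550 mg/kg replicate 2. On the F test it was 383 with array weights and 128 to 248 with each array left out, at 130, 128 and 138 without 550 mg/kg replicates 2, 4 and 5. On the slope, from 53, it was 333 on log10(dose) with vehicle left out, 112 without the dimmest probe sets, 93 with cyclic loess and with trend and robust settings, 115 with array weights and 104 with averaged probe sets. With each array left out the slope count ran from 20 to 104, at 104 without vehicle replicate 2, 88 without 55 mg/kg replicate 1 or 6, and 21, 20, 30, 28 and 20 without 550 mg/kg replicates 1, 2, 3, 4 and 6. Against the other 5 groups it was 554 without 550 mg/kg replicate 4. With all arrays of a comparison kept, single genes also crossed the threshold. These were, at 550 mg/kg against vehicle, Atf5 with averaged probe sets (adjusted p = 0.0477) and the second Hsp90ab1 probe set without the dimmest probe sets (0.0303), with trend and robust settings (0.0208) and with array weights (0.0400). On the F test they were Pdia3 with averaged probe sets (0.0153), Fkbp4 with array weights (0.0321), the second Hsp90ab1 probe set with trend and robust settings (0.0461), Trap1 without the dimmest probe sets (0.0418), with trend and robust settings (0.0351), array weights (0.0375) and averaged probe sets (0.0324), and Hsph1 with averaged probe sets (0.0577). The cause was not tested. Differences of dim probe sets, such as those of Hspa1a, Ppp1r15a and Atf3, may be limited where RMA values level off near background, which was not tested.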
